A study of Mus musculus with 5 samples.

Results

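The nuclear genes for the subunits of the mitochondrial respiratory chain and the ATP synthase were followed across 5 libraries of mouse dorsolateral prostate. The members are the protein-coding genes with symbols of the form Nduf (a, b, c, s or v and a number), Sdha to Sdhd, Uqcr, Cox4 to Cox8 and Atp5, with Cyc1 and Cycs. The choice used gene symbols and no measured value, but was made with earlier results of these data known. It gave 86 of the 51912 genes listed, on 19 chromosomes. By symbol, 37 of these were placed in complex I, 4 in complex II and 9, Cyc1 among them, in complex III. Complex IV was given 18 and complex V 17, and Cycs encodes cytochrome c. Ndufa4, now known as a subunit of complex IV, and its relative Ndufa4l2 are counted in complex I by their symbols. After a filter on low counts, 82 members were tested among 18590 genes. The other members, Cox6a2, Cox7b2, Cox8b and Cox8c, were at or near 0.

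The study asked what loss of the growth hormone receptor, Ghr, does in the normal prostate. The libraries labelled Ghr deletion came from 2 male mice of the genotype Ghrflox/flox;ROSA26Cre-ERT2+/0. The control libraries came from 3 males of the genotype Ghrflox/flox, which carry the floxed allele and no Cre. All 5 mice were 3 months old and had received tamoxifen at 250 mg/kg a day for 5 days, with the prostate collected 1 month later. The ROSA26 promoter is active in most tissues, so the inducible Cre is not limited to prostate cells, and no tamoxifen-treated mouse with Cre and an intact Ghr gene is among the groups.

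Mitochondria make most of a cell's ATP by passing electrons along protein complexes of the inner membrane. Complex I takes electrons from NADH and complex II from succinate, complex III hands them to cytochrome c, and complex IV gives them to oxygen. Complexes I, III and IV pump protons as they do so, and complex V, the ATP synthase, uses the proton gradient to make ATP. A few core subunits are encoded by mitochondrial DNA, and the members here are the nuclear genes covered by the symbols given above. The luminal cells of the prostate are known for accumulating and secreting citrate, an intermediate of the pathway that feeds the chain.

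Levels are CPM, the expected count as a share of a library size scaled by TMM (the trimmed mean of M values), unless TPM is named, which also divides by transcript length. Library totals were 31740687 and 32782683 expected counts in Ghr deletion 1 and 2, and 19517831, 29705618 and 41553558 in controls 1 to 3. Ghr (ENSMUSG00000055737, chr15:3317760-3583492 on GRCm38) stood at 21.5 and 10.2 CPM in Ghr deletion 1 and 2, against 10.1, 11.8 and 13.2 CPM in the controls. The targeted gene was therefore not lower in the libraries labelled with its deletion. edgeR's quasi-likelihood test gave it a log2 fold change of 0.44 with an SE of 0.35 and an adjusted p = 0.874. Counts cover the whole gene and the labels do not name the floxed exon, so the labels are used as given. Control 2 stood apart: protein-coding genes held 48.5% of its counts, against 88.3% and 84.2% in the Ghr deletion libraries and 85.2% and 83.5% in controls 1 and 3. Prostate markers also differed between libraries. Probasin, Pbsn, a secretory protein of the mouse prostate, had 0.0454 and 8.76 CPM in the Ghr deletion libraries, against 11.1, 475 and 0.816 CPM in the controls. Msmb, a secreted prostate protein, had 0 and 0.429 CPM there, against 11.1, 112 and 0.0441 CPM. The 8 seminal vesicle markers summed to 104999 and 183272 CPM in the Ghr deletion libraries, against 451761, 234412 and 234784 CPM in the controls. The labelled tissue was thus unevenly marked, with Pbsn and Msmb at or near 0 in Ghr deletion 1 and control 3.

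No subunit gene passed the test between the groups, where no other gene did either, and control 2 had the lowest summed level. Summed over the 86 members, the level was 3713 and 3500 CPM in Ghr deletion 1 and 2, against 3796, 2553 and 3941 CPM in controls 1 to 3. The Ghr deletion sums lay inside the range of the controls. Control 2 was the lowest library for 57 of the 82 tested members (69.5%), against 33.5% of all tested genes. The members' median deviation from each gene's own mean was 0.09 and 0.00 log2 units in the Ghr deletion libraries, against 0.17, -0.40 and 0.15 in the controls. The same library held the low share of protein-coding counts and the high prostate markers, and their part in its subunit levels was not tested. In whole tissue, fewer cells of a type and less RNA per cell cannot be told apart.

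**Figure D1:**
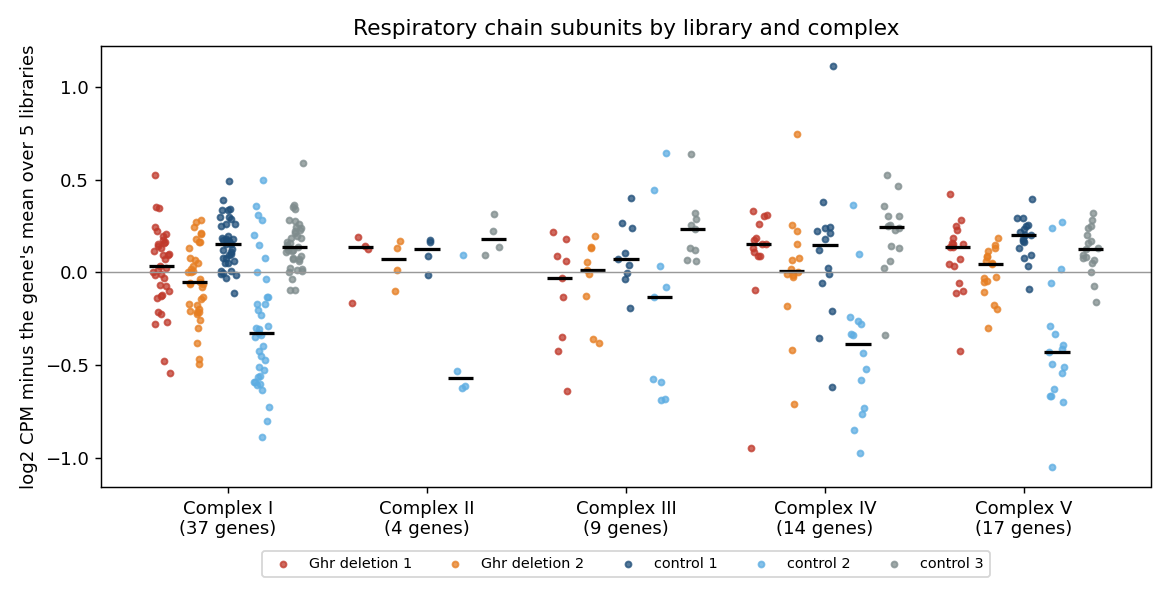
Each point is a tested subunit gene, placed by its log2 CPM in a library minus its mean over the 5 libraries, and black bars are medians per library and complex. The control 2 points have the lowest median in each of the 5 complexes, and the Ghr deletion medians lie between -0.05 and 0.15.

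No member passed the test. With edgeR's quasi-likelihood test, 0 of 82 members and 0 of 18590 genes (0% of genes) had an adjusted p under 0.05. The members' adjusted p ran from 0.874 to 1.000, and the median SE of a member's log2 fold change was 0.27. For 62 of the 82 members the 95% interval lay within 1 log2 unit of 0, so larger differences than that in those members fall outside their intervals. At an unadjusted p under 0.05, 5 members were lower in the Ghr deletion libraries, where 3.1% of all genes were. These were Uqcrq, Ndufb7, Uqcr11, Ndufs7 and Atp5d. No member was higher at that level, where 1.16% of all genes were. Over all genes 792 had an unadjusted p under 0.05. DESeq2 called 81 genes (0.436% of genes) and 0 members, of which 6 were below 0.05 unadjusted. With limma-voom 0 genes and 0 members were called, and 665 genes and 5 members were below 0.05 unadjusted. The p-values set each group difference against the spread between these 5 animals' libraries, which is estimated in part from the other genes.

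Members lay on both sides of the other genes, with 49 above and 33 below the all-gene median. The median log2 fold change of the 82 members was 0.05, against -0.01 for all tested genes, and single members ran from -0.87 to 0.93. By complex the median was -0.03 in complex I, 0.15 in complex II, 0.02 in complex III, 0.11 in complex IV and 0.07 in complex V. In 14 members both Ghr deletion libraries lay below all 3 controls, which 12.5% of all tested genes also did. In 5 members both lay above all 3 controls, against 10.8% of all genes. The remaining 63 members overlapped. The 14 were 8 genes of complex I, 1 of complex II, 2 of complex III and 3 of complex V. The 5 were 3 of complex I, with Ndufa4 placed there by its symbol, and 2 of complex IV. Both counts turned on the scaling: on library size alone 1 member was lower and 38 were higher, against 1.61% and 46.8% of all genes. On that scale the median of all genes stood at 0.58.

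Without control 2 more members lay low. Then 28 of 82 members (34.1%) lay below both remaining controls in both Ghr deletion libraries, against 17.8% of all genes. Among them were the same 14. In the other direction 6 members lay above, against 17.1% of all genes. Control 2 was the lowest library for 57 of the 82 members, against 33.5% of all genes. The rise from 14 to 28 restates that and is no separate observation. Without control 1 instead, 16 members lay below, against 18.8% of all genes. The median of the members, relative to that of all genes, was -0.12 without control 2 and 0.06 with it. By complex, on the same relative scale, it was -0.14 without control 2 and -0.02 with it in complex I, -0.06 and 0.15 in complex II, -0.13 and 0.02 in complex III, -0.08 and 0.11 in complex IV, and -0.08 and 0.08 in complex V. The sign of the median in complexes II to V thus turned with that library. By complex, the 28 comprised 15 of 37 genes of complex I, 2 of 4 of complex II, 2 of 9 of complex III, 3 of 14 tested genes of complex IV and 6 of 17 of complex V.

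Complex I showed both directions. Its most abundant genes per length were Ndufa1 and Ndufa4. Ndufa1, a small membrane-arm subunit needed for assembly (chrX:37187588-37191163), had 62.3 and 31.3 CPM in the Ghr deletion libraries, against 51.4, 32.2 and 46.8 CPM in the controls. The Ghr deletion values held both the highest and the lowest of the 5. Ndufa4, first assigned to complex I and now known as a subunit of complex IV (chr6:11900292-11907497), had 70.1 and 65.1 CPM, against 56.9, 29.5 and 64.7 CPM. Ghr deletion 2 and control 3 were nearly equal, and control 2 was the low one. Ndufb7, an accessory subunit of the membrane arm (chr8:83566671-83571626), had 10.9 and 12.1 CPM, against 18.2, 22.5 and 18.6 CPM. Its groups did not overlap, with a log2 fold change of -0.78 (SE 0.20, 95% interval -1.28 to -0.28, adjusted p = 0.874, edgeR). Ndufs7, a core subunit that carries the last iron-sulphur cluster before ubiquinone (chr10:80249121-80256794), had 6.17 and 7.37 CPM, against 9.38, 11.1 and 10.1 CPM. Both Ghr deletion libraries were below every control (log2 fold change -0.59, SE 0.23).

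The other 6 complex I genes below every control were chosen for mention after their values were seen. They were Ndufa2, Ndufa7, Ndufa11, Ndufa13, Ndufv1 and Ndufv3. Ndufv1 carries the NADH-binding site of the complex and had 36.4 and 38.4 CPM in the Ghr deletion libraries, against 42.2, 40.02 and 43.5 CPM in the controls. Ndufa13, a membrane-arm subunit also known as GRIM-19, had 25.8 and 27.0 CPM, against 35.3, 36.0 and 34.05 CPM. In Ndufv1 the gap between the groups was small beside the spread within them, and in Ndufa13 it was wide. In the opposite direction, Ndufa5 and Ndufa10 joined Ndufa4 above every control. Ndufa5, a peripheral-arm subunit, had 19.6 and 20.04 CPM, against 17.2, 9.92 and 18.2 CPM.

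Complex II, which is also an enzyme of the citric acid cycle, overlapped in 3 of its 4 genes. Sdha, the flavoprotein that oxidises succinate (chr13:74322254-74350280), had 151 and 140 CPM in the Ghr deletion libraries, against 156, 95.5 and 161 CPM in the controls. Sdhd, a membrane anchor (chr9:50596357-50603812), had 44.1 and 44.8 CPM, against 44.8, 26.1 and 43.8 CPM (log2 fold change 0.22, SE 0.28). Both had 1 low value, that of control 2. Sdhb, the iron-sulphur subunit (chr4:140961203-140979193), had 26.6 and 27.8 CPM, against 31.7, 31.9 and 31.9 CPM. The controls were close together and both Ghr deletion libraries were below them, with a log2 fold change of -0.23 (SE 0.17, 95% interval -0.64 to 0.19).

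Complex III held the lowest fold change of all members. Uqcrq, a small subunit known as a ubiquinone-binding protein (chr11:53427922-53430831), had 2.77 and 3.38 CPM in the Ghr deletion libraries, against 5.19, 6.88 and 4.76 CPM in the controls (log2 fold change -0.87, SE 0.31, adjusted p = 0.874, edgeR). Uqcr11, a small accessory subunit (chr10:80402997-80406830), had 12.3 and 12.6 CPM, against 17.3, 22.5 and 20.1 CPM (log2 fold change -0.68, SE 0.20). In both genes the Ghr deletion values were close to each other and below every control. The abundant subunits did not share that pattern. Uqcrh, the hinge protein that helps cytochrome c dock, had 82.7 and 73.6 CPM, against 88.0, 48.5 and 79.97 CPM. Uqcrb had 48.5 and 50.2 CPM, against 60.2, 28.3 and 47.5 CPM. Cyc1, the haem protein that passes electrons to cytochrome c, had 20.6 and 21.9 CPM, against 21.7, 19.2 and 22.1 CPM. It averaged 21.2 ± 0.887 CPM in the Ghr deletion libraries (SD, n = 2) and 21.0 ± 1.55 CPM in the controls (SD, n = 3), a difference within the spread. Cycs, cytochrome c itself (chr6:50562563-50566538), had 50 and 57.2 CPM, against 56.5, 27.2 and 56.0 CPM. Its log2 fold change was 0.20 (SE 0.35). Relative to all genes it was 0.21 with control 2 and -0.07 without it.

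Complex IV had no member below every control. Cox6c, a small subunit of the enzyme, had 76.5 and 77.7 CPM in the Ghr deletion libraries, against 82.8, 41.1 and 82.7 CPM in the controls. Cox4i1, the main regulatory subunit, had 120 and 112 CPM, against 97.8, 89.5 and 156 CPM. In both genes the Ghr deletion values lay within the range of the controls. Cox5a, chosen after its values were seen, had 20.9 and 20.3 CPM, against 20.3, 10.4 and 17.7 CPM, so that Ghr deletion 2 and control 1 were all but equal.

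Complex V carried the largest sum, 1422 and 1350 CPM in the Ghr deletion libraries, against 1427, 914 and 1489 CPM in the controls. Atp5b, the catalytic beta subunit (chr10:128083273-128090391), had 426 and 403 CPM, against 383, 223 and 432 CPM. Atp5h, a stalk subunit, had 78.7 and 72.9 CPM, against 80.2, 52.5 and 73.3 CPM. Neither separated the groups. Atp5d, the delta subunit of the rotating central stalk (chr10:80138632-80145818), had 21.4 and 24.96 CPM, against 34.1, 33.9 and 31.5 CPM. All 3 controls were above both Ghr deletion libraries, with a log2 fold change of -0.52 (SE 0.18, adjusted p = 0.874, edgeR). Atp5e, the epsilon subunit of the same stalk and chosen after its values were seen, had 21.4 and 20.4 CPM, against 27.5, 23.3 and 23.1 CPM.

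**Figure D2:**
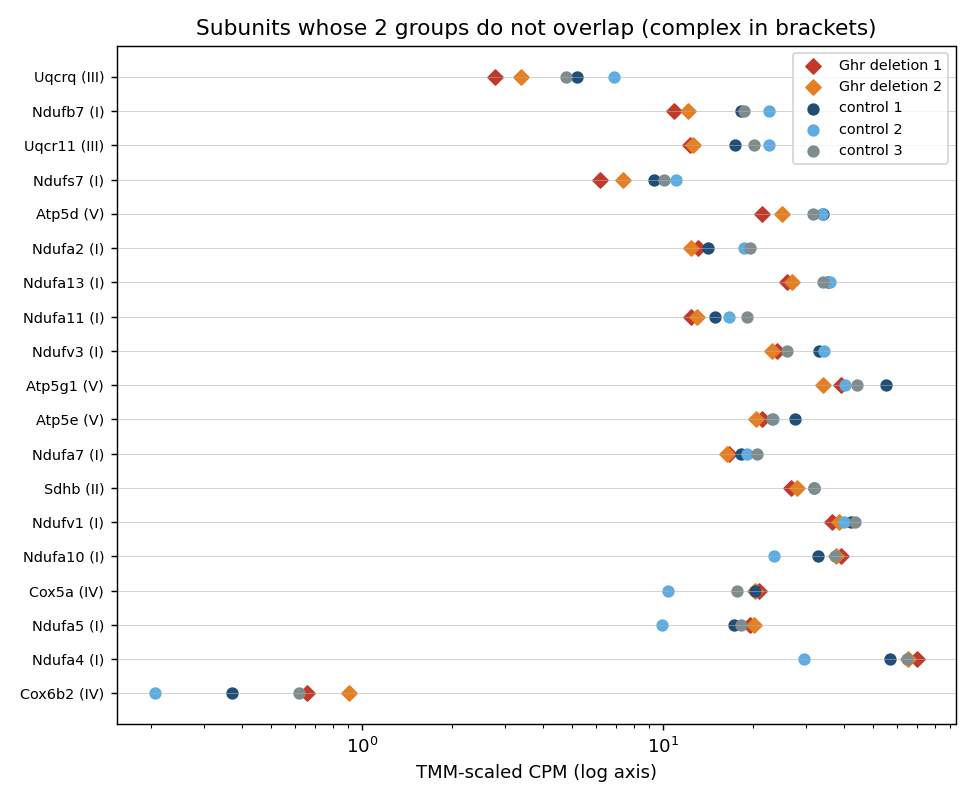
The 19 members whose groups do not overlap, with TMM-scaled CPM on a log axis and 1 point per library (diamonds for Ghr deletion, circles for control). The 14 genes from Uqcrq down to Ndufv1 have both diamonds left of every circle, and for the last 5, from Ndufa10 to Cox6b2, control 2 is the circle farthest left.

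The makeup of the chain, taken per length, was similar in all libraries. Complex I genes held 31.2% and 30.0% of the members' summed TPM in the Ghr deletion libraries, against 31.5%, 32.6% and 30.0% in the controls. Complex V genes held 32.0% and 32.3%, against 31.9%, 30.6% and 31.2%. Complex IV genes held 23.5% and 23.1%, against 22.3%, 21.8% and 24.2%, and complexes II and III made up most of the rest. The summed TPM itself was 7307 and 4876 in the Ghr deletion libraries, against 2610, 750 and 3885 in the controls. That order does not carry over to a comparison of the groups, since on a log2(TPM + 1) scale the all-gene median fold change was itself 0.87. There 70 of 82 members lay above every control, against 78.5% of all genes.

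Several subunits come as a common isoform and a tissue-restricted one, and the common form held nearly all the TPM here. Cox4i1 held 99.7% and 99.8% of the COX4 pair's TPM in the Ghr deletion libraries, against 99.8%, 99.5% and 99.7% in the controls, the rest being the lung-enriched, oxygen-responsive Cox4i2. The muscle forms Cox6a2 and Cox8b and the testis forms Cox7b2 and Cox8c were at or near 0. Cox6a2 and Cox7b2 had 0 counts in every library, and 3 counts would have been 0.0681 and 0.0757 CPM in the Ghr deletion libraries, against 0.185, 0.154 and 0.0662 CPM in the controls. Cox6b2, the testis form of COX6B, had 0.658 and 0.909 CPM in the Ghr deletion libraries, against 0.370, 0.206 and 0.618 CPM in the controls. These rest on 29 and 36 counts, against 6, 4 and 28, and the log2 fold change of 0.93 has an SE of 0.60. Relative to all genes, it ran from 0.61 without control 2 to 1.46 without control 3. The 6 germ cell markers summed to 0.408 and 0.177 CPM, against 0.370, 3.19 and 0.397 CPM, and 0 of them passed the low-count filter. Prm1, Prm2, Tnp1 and Tnp2 were highest in control 2, Ddx4 in control 1 and Dazl in control 3. The part of germ cells in the Cox6b2 values was not tested. Cox7a1, the heart and muscle form of COX7A, had 0.545 and 1.21 CPM, against 2.59, 1.23 and 0.882 CPM (log2 fold change -0.82, SE 0.66). Relative to all genes, it ran from -1.47 without Ghr deletion 2 to -0.27 without control 1. Skeletal muscle markers summed to 106 and 153 CPM, against 168, 91.3 and 336 CPM, most of it from Acta1, which was highest in control 3. The other markers did not share an order. Actn3 had 0.635 and 0.454 CPM, against 1.98, 1.03 and 0.397 CPM, and was highest in control 1, as Cox7a1 was. So were Tnni2 and Myh2. Ckm was highest in control 3, Casq1 in Ghr deletion 2, and Mylpf, Tnnt3, Myh1 and Myh4 in control 2. The part of muscle in the Cox7a1 values was not tested.

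The balance within the COX7A family varied between libraries. Cox7a2, the liver form, held 46.7% and 58.2% of its TPM in the Ghr deletion libraries, against 41.4%, 36.5% and 45.4% in the controls. Cox7a2l, known for joining complexes III and IV into supercomplexes, held 51.9% and 37.6%, against 52.7%, 58.8% and 52.6%. The 3 genes for subunit c of the ATP synthase, which encode the same mature protein with different import sequences, shared their family's TPM about evenly. Atp5g1 held 32.5% and 30.3%, against 38.3%, 39.9% and 33.9%. Its level was 39.0 and 34.1 CPM in the Ghr deletion libraries, against 55.2, 40.3 and 44.3 CPM in the controls (log2 fold change -0.35, SE 0.21). Atp5g3 held 32.9% and 32.6% of the TPM, against 30.0%, 25.8% and 26.0%. Shares within a family depend on each other, and the level of Atp5g3 itself overlapped, at 40.2 and 38.2 CPM, against 44.7, 27.3 and 34.6 CPM. Ndufa4l2, the hypoxia-induced relative of Ndufa4, held 0.599% and 0.401% of that pair's TPM, against 0.593%, 1.25% and 1.09%.

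Near-identical copies make some of these values uncertain. By coding sequence, 23 members have 44 copies elsewhere in the genome that are at least 95% identical over at least 80% of its length, mostly processed pseudogenes. Such reads are shared out by a model. The copies held over 5% of the member's counts for 4 members (Ndufb4, Uqcr10, Ndufs5 and Atp5g2). Cox7a2l, at 104 and 51.5 CPM in the Ghr deletion libraries, against 110, 66.7 and 108 CPM in the controls, was low in Ghr deletion 2 and control 2. Its copy Gm6969, 97.9% identical, had 0.227 and 13.6 CPM, against 0.185, 5.55 and 0.199 CPM, and was high in those libraries. The 2 together gave 105 and 65.0 CPM, against 110, 72.3 and 108 CPM, with Ghr deletion 2 and control 2 again the lowest. Ndufs5 with its copy BC002163, 99.4% identical, came to 15.2 and 16.2 CPM, against 18.8, 14.1 and 19.5 CPM. Atp5o with its copy Gm5436, 97.0% identical, came to 66.2 and 58.9 CPM, against 68.5, 46.8 and 66.2 CPM. These 3 copies were singled out after their values were seen. The sums do not show how reads were shared, and the part of read sharing in the levels was not tested.

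**Figure D3:**
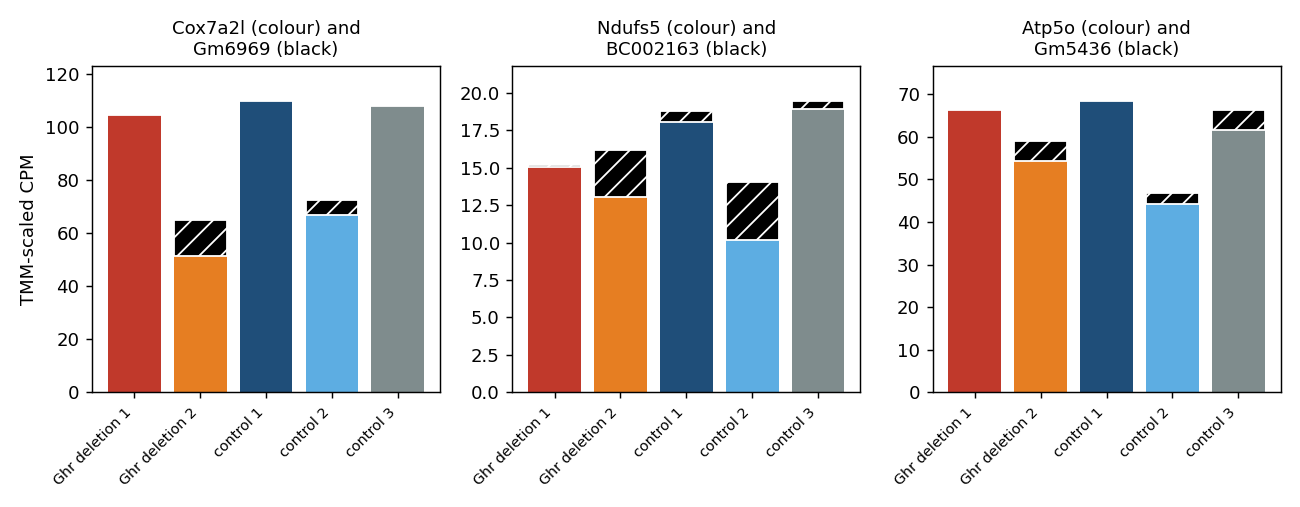
TMM-scaled CPM of Cox7a2l, Ndufs5 and Atp5o (coloured bars) with a near-identical processed pseudogene stacked on each (black hatched bars), per library. Gm6969 and BC002163 are highest in Ghr deletion 2 and control 2, where Cox7a2l and Ndufs5 are lowest, and Gm5436 is listed at 0 in Ghr deletion 1 and control 1.

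The members that lay lower were richer in G and C. The GC content of the transcripts had a median of 54.2% in the 14 lower members, 48.6% in the 5 higher ones and 49.5% in the 63 that overlapped. Above 50% GC, 13 of 44 members (29.5%) lay below every control, and at or below it 1 of 38 (2.6%) did. The shares of all tested protein-coding genes in the same ranges were close to these, 24.0% above 50% GC and 4.0% at or below it. Across the 82 members, Spearman's rho between GC content and log2 fold change was -0.49, and across 14693 tested protein-coding genes it was -0.43. These are descriptions across genes that share libraries and depth and are not independent replicates. Within a library, rho between GC content and the members' deviation was -0.43 and -0.41 in the Ghr deletion libraries, against -0.37, 0.56 and 0.21 in the controls. With the GC trend of each library removed, a step chosen after seeing the data, 7 members lay below every control and 9 above, against 9.42% and 8.71% of all genes. Relative to all genes, Ndufb7 then had a log2 fold change of -0.60 and Uqcrq of -0.82, while Uqcr11 stood at -0.19, Ndufs7 at -0.14 and Atp5d at -0.05. The part of GC content in the group difference was not tested further.

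**Figure D4:**
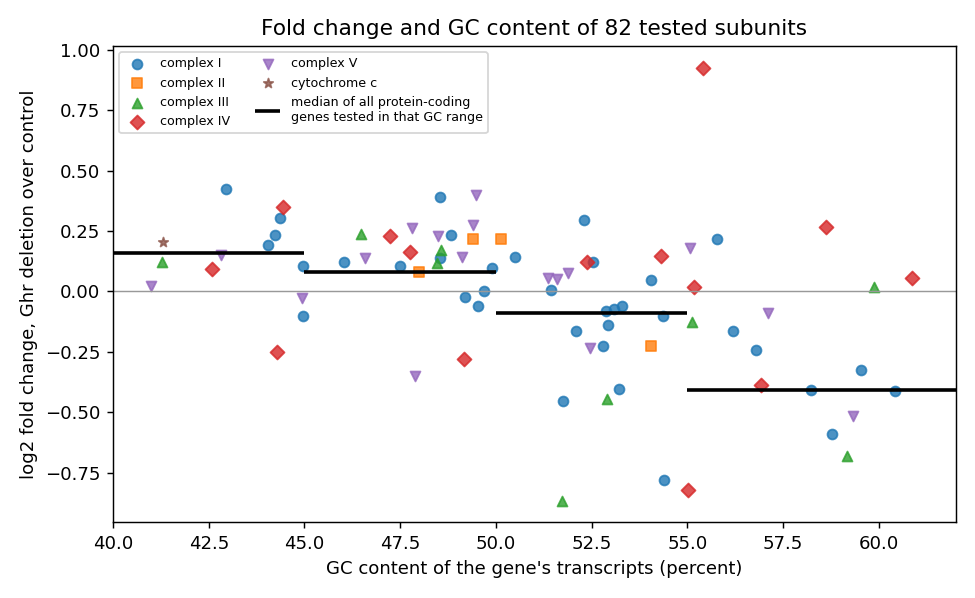
Log2 fold change (Ghr deletion over control) of the 82 tested members against the GC content of their transcripts, with symbols by complex. Black bars are medians of all tested protein-coding genes in 4 ranges of GC content, and step down from 0.16 at or below 45% to -0.41 over 55%.

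Promoters of these genes are known for sites of the nuclear respiratory factors NRF1 and NRF2 (an ETS protein), YY1, the oestrogen-related receptors (ERR) and CREB. RefSeq promoters (GRCm38.p6, 250 bases before to 50 after the gene start) were found for 69 of the 86 members and searched on both strands for fixed letters. The NRF1 core GCATGCGC was in 11 of 69 (15.9%), against 3.05% of 27025 genes and 5.5% of the 11415 that were tested and protein-coding, the closer comparison for these members. The core with GC added before it, which reads the same on both strands, was in 5 (7.25%), against 1.07% and 2.12%. The YY1 letters AAGATGGC were in 10 (14.5%), against 3.19% and 4.73%, and 8 of the 10 matches lay on the gene's strand, 23 to 39 bases after the start. The ETS letters CCGGAAGT were in 5 (7.25%), above the 4.31% of all genes but below the 8.16% of tested protein-coding genes. The CREB letters TGACGTCA were also in 5, against 2.03% and 3.33%. The ERR letters TCAAGGTCA were in 2 (2.9%), against 0.466% and 0.333%. Of the 12 lower members with a promoter, 3 had the NRF1 core, 1 the YY1, 1 the ETS, 1 the CREB and 0 the ERR letters. Over all 69 these were 11, 10, 5, 5 and 2. The upstream 250 bases are shown for Uqcr11 and Ndufa11, both among the 3 lower members with the NRF1 core. They are also shown for Cycs, a gene long studied for its NRF1 site. The NRF1, ETS and CREB matches that lie wholly inside these bases are in capitals. The stretches lie at chr10:80406822-80407071 on the minus strand (Uqcr11), chr17:56717512-56717761 on the plus strand (Ndufa11) and chr6:50566570-50566819 on the minus strand (Cycs).
Uqcr11: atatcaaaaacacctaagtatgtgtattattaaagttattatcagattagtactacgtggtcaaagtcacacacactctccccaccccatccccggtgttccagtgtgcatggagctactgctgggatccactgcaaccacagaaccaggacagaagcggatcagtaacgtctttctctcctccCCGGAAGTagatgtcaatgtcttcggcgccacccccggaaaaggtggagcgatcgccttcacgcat
Ndufa11: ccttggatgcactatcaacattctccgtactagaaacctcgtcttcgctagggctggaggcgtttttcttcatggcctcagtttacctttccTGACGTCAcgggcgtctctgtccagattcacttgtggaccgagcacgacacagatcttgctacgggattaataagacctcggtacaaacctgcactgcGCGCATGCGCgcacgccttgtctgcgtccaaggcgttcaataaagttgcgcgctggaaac
Cycs: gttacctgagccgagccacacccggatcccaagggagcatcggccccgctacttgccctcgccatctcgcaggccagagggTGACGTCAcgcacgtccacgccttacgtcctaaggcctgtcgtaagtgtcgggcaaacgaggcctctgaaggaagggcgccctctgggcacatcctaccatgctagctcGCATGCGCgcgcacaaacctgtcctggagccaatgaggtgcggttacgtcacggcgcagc
Uqcr11 shows the ETS letters, and also has the NRF1 core across its start, from -4 to 4, which the stretch shown cuts off. Ndufa11 shows the CREB letters and the extended NRF1 core, and Cycs the CREB letters and the NRF1 core. The core lies at -58 from the start in Ndufa11 and at -60 in Cycs, while Ndufa11 lay below every control and Cycs overlapped. A match is a description of letters, not of binding.

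The 13 subunit genes of mitochondrial DNA were not low in control 2. They summed to 8024 and 9734 CPM in the Ghr deletion libraries, against 9656, 14608 and 9207 CPM in the controls. Per count of a nuclear member there were 2.16 and 2.78 mitochondrial counts in the Ghr deletion libraries, against 2.54, 5.72 and 2.34 in the controls. Control 2 was thus the highest in the one set and the lowest in the other. edgeR called 0 of the 13 (1 at an unadjusted p under 0.05), limma-voom 0 and DESeq2 1, mt-Nd3. There were 1 of 13 above every control and 2 below, near the 10.8% and 12.5% of all genes, and the median log2 fold change was -0.53. Those below were mt-Nd3, a complex I core subunit, at 158 and 165 CPM against 289, 321 and 271 CPM (log2 fold change -0.86, SE 0.22), and mt-Atp6, the proton channel of complex V, at 187 and 231 CPM against 327, 312 and 247 CPM (-0.50, SE 0.25).

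**Figure D5:**
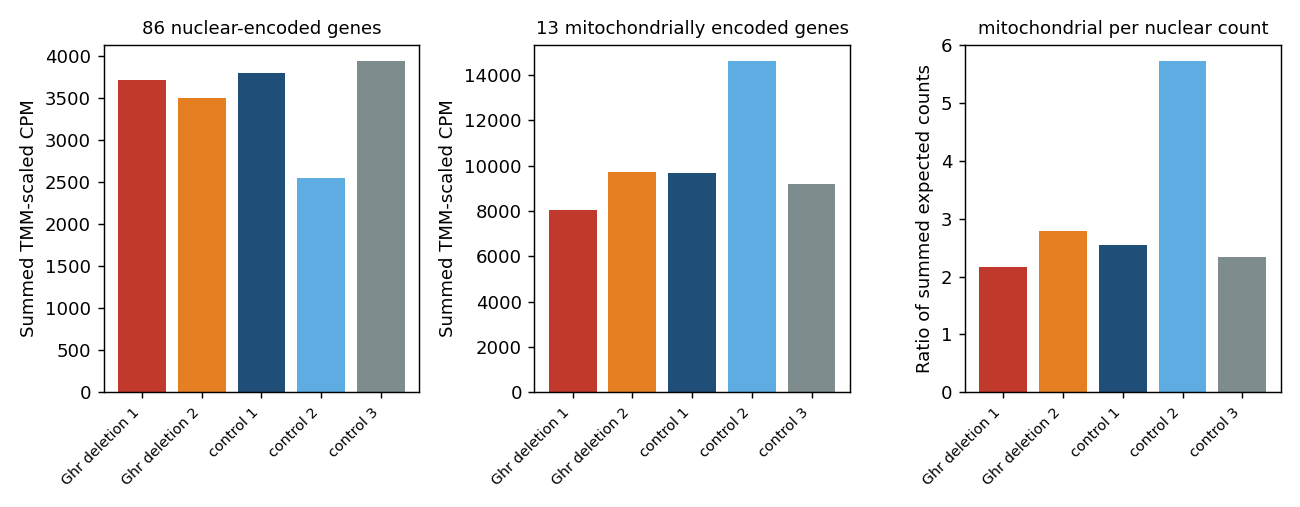
Summed TMM-scaled CPM of the 86 nuclear members, of the 13 mitochondrially encoded genes, and the ratio of their expected counts, per library. Control 2 has the lowest nuclear sum, 2553 CPM, the highest mitochondrial sum, 14608 CPM, and a ratio of 5.72, against 2.16 to 2.78 in the other 4 libraries.

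Among genes that serve the chain, in 6 further lists, edgeR, DESeq2 and limma-voom called 0. At an unadjusted p under 0.05 edgeR had 1 gene each among citric acid cycle genes (Pcx) and regulators (Esrra). The counts of genes that lay above or below every control in these lists can be read against the 10.8% above and 12.5% below among all genes. Of 47 tested assembly factors, 7 lay above and 6 below, near those shares, with a median log2 fold change of 0.11. The smallest p-values were those of Uqcc3, which assembles complex III (6.42 and 7.52 CPM, against 9.01, 9.81 and 10.9 CPM), and Ecsit, which assembles complex I (7.76 and 9.84 CPM, against 11.8, 10.6 and 13.2 CPM). Both lay below every control. Of 21 genes of the citric acid cycle and pyruvate entry, 3 lay above and 2 below. Pcx, which makes oxaloacetate from pyruvate, had 34.4 and 38.6 CPM, against 64.8, 65.6 and 45.6 CPM (log2 fold change -0.68, SE 0.23, adjusted p = 0.874, edgeR). Idh2, a mitochondrial isocitrate dehydrogenase, had 71.4 and 78.6 CPM, against 30.7, 27.8 and 78.8 CPM, so that control 3 was at the level of the Ghr deletion libraries.

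Among 16 regulators of mitochondrial biogenesis, 1 lay above every control and 3 below, where 10.8% and 12.5% of all genes did. The smallest p-values belonged to a pair of related nuclear receptors that stood in opposite order. Esrra, which encodes ERR alpha, had 2.43 and 2.78 CPM in the Ghr deletion libraries, against 5.25, 16.2 and 5.21 CPM in the controls (log2 fold change -1.77, SE 0.61). Esrrg, which encodes ERR gamma, had 6.26 and 6.54 CPM, against 0.864, 2.88 and 3.57 CPM (log2 fold change 1.37, SE 0.57). Neither passed edgeR's test, at an adjusted p of 0.874 for each. Of 16 glycolytic genes, 0 lay above every control and 2 below, and of 20 genes of mitochondrial carriers and membranes, 2 lay above and 2 below. The same shares of all genes apply to these counts. Ldhb, a lactate dehydrogenase, had 25.6 and 43.3 CPM, against 18.2, 15.1 and 31.6 CPM, and Pkm, pyruvate kinase, had 161 and 174 CPM, against 226, 197 and 203 CPM. Tomm40, the pore of the outer membrane translocase, had 8.14 and 8.86 CPM, against 10.2, 13.6 and 11.9 CPM, and Mfn2, a fusion protein, had 41.1 and 49.0 CPM, against 59.4, 53.5 and 51.0 CPM. Of the 4 tested accessory genes outside the symbol rule, 0 separated the groups. Atpif1, an inhibitor of the ATP synthase, had 26.2 and 22.2 CPM, against 44.9, 41.4 and 22.8 CPM, and Cox17, a copper chaperone for complex IV, had 12.4 and 17.8 CPM, against 17.5, 21.1 and 17.4 CPM.

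Markers of other cell types are given beside these levels, and edgeR called 0 of them. Of 7 tested adipocyte markers, 6 lay above every control, where 10.8% of all genes did, and 5 had an unadjusted p under 0.05. They were low throughout, as Adipoq, the adipocyte hormone adiponectin, at 1.23 and 0.328 CPM in the Ghr deletion libraries, against 0, 0.103 and 0.110 CPM in the controls. The marker that overlapped, Plin4, held most of the summed level of 63.3 and 105 CPM, against 43.8, 43.8 and 84.7 CPM. Of 8 seminal vesicle markers, 6 lay below every control, where 12.5% of all genes did, 5 had an unadjusted p under 0.05 and DESeq2 called 5. Svs1 had 0.0454 and 7.90 CPM, against 32915, 22520 and 58.6 CPM, so that control 3 was nearer to the Ghr deletion libraries than to the other controls. The abundant Svs2 overlapped, at 67744 and 118601 CPM, against 68572, 47338 and 140510 CPM.

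The 8 smooth muscle markers summed to 6428 and 6827 CPM in the Ghr deletion libraries, against 5623, 2391 and 7772 CPM in the controls. All but Smtn were lowest in control 2, as most subunit genes were. So were all fibroblast markers but Col1a1, which summed to 3218 and 1409 CPM, against 1286, 899 and 2562 CPM with Col1a1 included. Myeloid markers, all but Ptprc, were lowest there too, and the list summed to 129 and 68.5 CPM, against 118, 62.5 and 69.8 CPM. Basal epithelium markers summed to 99.5 and 84.3 CPM, against 104, 104 and 102 CPM, lowest in Ghr deletion 2. The 5 markers of brown fat, a tissue dense in mitochondria, summed to 13.5 and 6.66 CPM, against 4.51, 3.13 and 5.32 CPM. Most of the difference lay in Dio2, which activates thyroid hormone, at 9.96 and 2.90 CPM, against 0.494, 0.411 and 2.07 CPM (unadjusted p = 0.0234, adjusted p = 0.874, edgeR). The defining marker Ucp1 was at 0 in both Ghr deletion libraries and in controls 1 and 2, and at 0.0662 CPM in control 3. The single markers named were picked with their values in view. The part of cell makeup in the subunit levels was not tested.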

How the data were processed

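Total RNA of flash-frozen dorsolateral prostate was sequenced with a stranded total RNA kit, per the labels' protocols. GRCm38, RSEM 1.3.0, STAR 2.5.3a and bcl2fastq 2.20.422 are named in the submitters' processing notes. Not given in the sources used here: step order, annotation release, strand setting. The authors deposited, per the file headers, expected counts, TPM and effective length for each gene, and RSEM shares reads that match several genes. Groups came from sample titles. No per-sample value column was left unmapped.

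Expected counts were rounded, filtered with filterByExpr, scaled by TMM and tested with edgeR 4.0.16 (R 4.3.3), with Benjamini-Hochberg adjustment over all tested genes at 0.05 and no covariate. Standard errors came from the fold change and its F statistic. Expected counts carry counting error that falls with depth, and floors of 3 counts cover counting error only. An exact two-sided test of 3 against 2 libraries cannot go below 0.2. The test was tested on simulated data. Symbols matched 99.5% of gene identifiers, and coordinates are GENCODE M21, which holds 99.6% of them. Copies were found with BLAST+ 2.17.0.

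The members and gene lists were chosen with earlier results of these data known. Named members are, per complex, the 2 with the highest mean TPM and the 2 with the smallest p, Cyc1, Cycs and the isoform families, and per list the 2 with the smallest p. Alternatives were DESeq2 1.42.0, limma 3.58.1 on counts and on log2(TPM + 1) and log2(TPM + 0.1), other scalings and filters, a replicate block and leaving out each library. Leaving out controls 1 and 2 together and removing the GC trend were added after seeing the data.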

Additional observations from a re-analysis of the deposited data

How the results depend on the processing

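Over 18 alternatives 0 members were called, except under log2(TPM + 1), where 1 was (Cox6b2, 0.29 relative to all genes, adjusted p = 0.028 by limma), and the cause was not tested. All fold changes in this paragraph are log2 and relative to the median of all genes. The number of genes called was 0 by edgeR, 2 without a low-count filter, 81 by DESeq2, 2294 on log2(TPM + 1), 733 on log2(TPM + 0.1), and 0 to 48 when 1 library was left out, the 48 without control 3. With replicate number as a block, 1126 genes and 0 members were called; libraries of the same number deviated together with correlations of 0.28 and 0.30, but with 2 pairs and no shared source in the labels the numbers are not a pairing. Members below every control numbered 14, where 12.5% of all genes lay below, and such shares of all genes follow in brackets. They numbered 1 on library size alone (1.61%), 0 on TPM (0.307%), 7 with the GC trend removed (9.42%) and 44 without controls 1 and 2 together (32.7%). When 1 library was left out they numbered 15 to 28, and the shares of all genes ran from 17.8% to 23.6%. The 28 were those without control 2, where 17.8% of all genes lay below. Members above every control numbered 5 (10.8%), and 38 (46.8%), 70 (78.5%), 9 (8.71%) and 14 (32.4%) under those same settings. When 1 library was left out they numbered 6 to 16: 11 without Ghr deletion 1, 15 without Ghr deletion 2, 13 without control 1 and 16 without control 3. Dropping a library also leaves fewer values to separate, and 17.1% to 23.5% of all genes then lay above. On log2(TPM + 1) the median of the members was 0.67, and 0.62 in complexes I and III, 0.77 in IV and 0.72 in V. Complex III stood at 0.23 on log2(TPM + 0.1) and -0.21 without controls 1 and 2. The direction turned on log2(TPM + 1) for Sdhb (0.32), Uqcrq (0.09), Atp5d (0.054), Atp5g1 (0.26) and Cox7a2l (0.26), for Cox7a2l without Ghr deletion 2 (0.18), for Cycs without control 2 (-0.07) and without controls 1 and 2 (-0.087), and for Sdhd without those controls (-0.003). Leaving out 1 library at a time gave -0.07 to 0.374 for Cycs and -0.843 to 0.18 for Cox7a2l. Why these directions turned was not tested. Depth limits Cox6b2, Cox7a1, Cox4i2 and Ndufa4l2 most, each below 3 CPM in every library.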
